A study of Mus musculus with 10 samples.

Results

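The Mof knockout (KO) libraries of mouse embryonic stem cells were compared with the wild type (WT) libraries across all genes, which uses 4 of the 10 libraries of the series. The members were taken by label: 2 libraries titled WT and 2 titled KO, with table rows of 1 gene name summed. Both groups are labelled as blastocyst-derived embryonic stem cells and their strain entry joins Mof fl/fl with Cre-ER TM on C57BL/6J, while the genotype reads wild type or Mof-KO. Both thus carry floxed Mof and a Cre recombinase, an enzyme that cuts out DNA between loxP sites, that acts when tamoxifen is given. They grew in 2i/LIF medium, in which LIF and inhibitors of the kinases MEK and GSK3 hold cells in the naive state. The labels name ethanol or 100 nM 4-hydroxytamoxifen, the drug that activates this Cre, for 3 days, without stating which group had which. They name no group with the drug or active Cre but intact Mof, so effects of the drug, of Cre and of Mof loss cannot be told apart. The series text calls the replicates biological duplicates, but nothing in the labels says whether they came from separate cultures or clones. The p-values here speak only of the spread between these samples. The other 6 libraries, from the E14tg2a line, belong to a separate experiment with etomoxir, an inhibitor of fatty acid oxidation. They enter the text through the 2 Control libraries of that experiment, which had water for 4 days, as a second look at a level.

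MOF, the product of Kat8, is a histone acetyltransferase of the MYST family that acetylates lysine 16 of histone H4. It works in the MSL complex, known for dosage compensation of the fly X chromosome, and in the NSL complex, which sits at promoters of widely expressed genes and is also found at mitochondria. In mouse embryonic stem cells MOF is known for its part in keeping the pluripotent state.

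Each library held 11715322 to 13326172 normalised counts, that is, read counts divided by 1 factor per library. A single read was worth 0.925 to 1.345 of them, which puts the depth at an estimated 12658671 and 12123429 reads in WT and 9783467 and 10180344 in KO. A count of 0 allows up to 3 reads, or 2.78 to 4.04 normalised counts, for counting error alone. Replicates correlated across genes at r = 0.9886 in WT and 0.9876 in KO on the log2 scale, where genes are not independent replicates. The 10 markers of embryonic stem cells summed to 70240 and 69110 in WT and 64770 and 65180 in KO, with none near 0. Of the 9 blood markers Csf1r, Adgre1, Tyrobp and Lyz2 were at 0 in all 4 libraries, as were the feeder markers Col1a2, Dcn, Lum and Postn. The blood markers summed to 1422 and 1235 in WT and 1783 and 1740 in KO, nearly all of it Cd68, a lysosomal membrane protein, which rose (1407 and 1213 in WT and 1758 and 1719 in KO, 0.41 on the log2 scale, lost without KO replicate 1 or 2, adjusted p up to 0.0998), a call also lost under the scaling to total signal and in the FPKM values. Itgb2, a leukocyte integrin chain, was at 0 and 0.98 in WT and 8.07 and 11.8 in KO and was not tested.

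Kat8 lies on chromosome 7 from 127912516 to 127925837 (GRCm38, the assembly also called mm10, as for all positions here). It measured 433.5 and 357 normalised counts in WT and 222 and 205.5 in KO, against 372 and 383 in the Control libraries. Both KO libraries lay below both WT libraries, at about the same level as each other. The KO to WT ratio of the means was 0.54 (log2 change -0.88 ± 0.14 SE, adjusted p = 0.000788, limma's moderated test adjusted over all genes by Benjamini and Hochberg, as for each adjusted p below). The call was lost in the FPKM values, counts per length and depth (adjusted p = 0.0581, 3.22e-13 to 0.0412 over the other alternatives). A gene total does not separate exons removed by Cre from the rest, so transcript left after deletion and undeleted cells cannot be told apart.

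**Figure D1:**
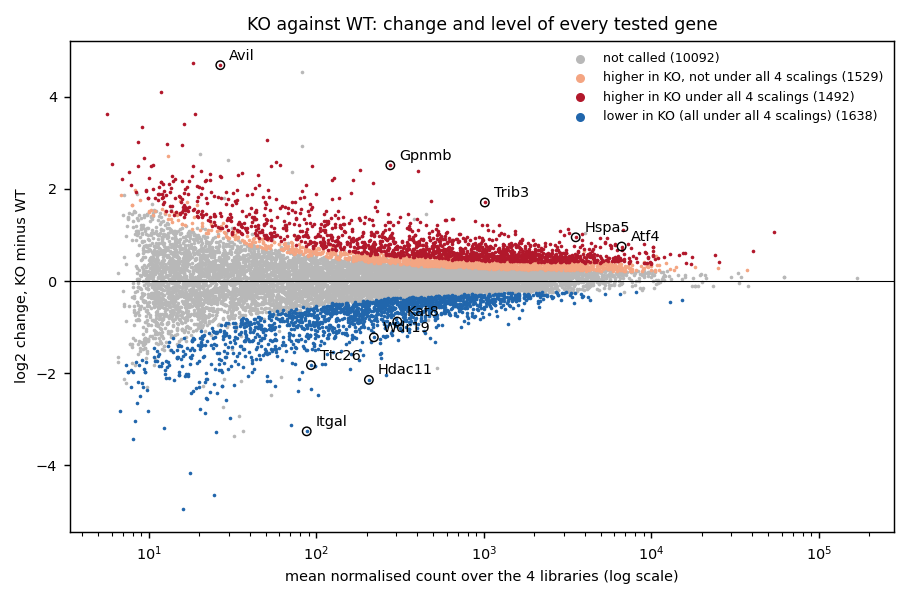
Change of each of the 14751 tested genes (vertical axis, log2 change KO minus WT) against its mean normalised count over the 4 libraries (horizontal axis, log scale), coloured by call. The 1529 rises in the lighter red were not called under all 4 scalings, while all 1638 falls were.

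Of the 14751 genes with at least 10 normalised counts in at least 2 of the 4 libraries, 4659 (31.6%) passed an adjusted p of 0.05. On the authors' scale 3021 rose (20.5% of tested genes) and 1638 fell (11.1%). The middle gene moved by 0.08 on the log2 scale, and other scalings shifted that by -0.08 (median of ratios), -0.11 (TMM) and -0.16 (total signal). Rises made up 64.8% of the calls as deposited, 50.2%, 44.4% and 34.1% under those scalings. A call made in 1 direction under all 4 scalings was had by 1492 rising (10.1%) and by all 1638 falling genes (11.1%), so falls are counted at their fewest here. A change of at least 2-fold was fitted for 440 rising and 430 falling genes. The plot of change against level shows the falling genes at lower levels than the rising ones: the median of the mean level was 543 normalised counts for rises and 219 for falls called under all 4 scalings, 198 for genes not called and 292 over all tested rows of a single gene. Among the rises and falls of at least 2-fold under all 4 scalings the medians were close, at 44.9 and 43.2. The KO libraries were also the shallower ones, and the part of depth in the falls was not tested. In 66.8% of tested genes both KO libraries lay on the same side of both WT libraries. Every gene named below as having risen or fallen was among them. Each list count below is to be read beside the 20.5% of all tested genes that rose and the 11.1% that fell. With FPKM values in place of counts 456 genes were called (427 of them shared), so most calls below rest on the count table. Leaving out 1 library left 4229 and 5004 calls without WT replicate 1 or 2, and 3157 and 2733 without KO replicate 1 or 2, where the lone library was taken to vary like the other group. A call described below as lost without a library had an adjusted p above 0.05 once that library was left out, and the highest adjusted p over all alternatives stands beside it.

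The partners of MOF moved little. Of 14 tested genes of the MSL and NSL complexes, Kat8 included, 3 rose (21.4%) and 2 fell (14.3%), shares near those of all genes. Msl3, the chromodomain subunit of MSL, went from 106 and 113 in WT to 64.6 and 57.6 in KO (log2 change -0.84 ± 0.20 SE, adjusted p = 0.00813). Ogt, the NSL subunit that adds N-acetylglucosamine to proteins, went from 4972 and 5320 in WT to 7248 and 7690 in KO (log2 change 0.54 ± 0.08 SE, adjusted p = 0.000511), a call also made in the FPKM values. Kansl1, the NSL scaffold, rose by 0.44 in a row shared with a predicted gene, a call lost in the FPKM values, where the change was -0.02 (adjusted p = 0.982). Msl2, the ubiquitin ligase subunit of MSL, rose by 0.29, a call lost under every other scaling (lost without WT replicate 1 or KO replicate 1 or 2, adjusted p up to 0.364). The other subunits were not called: Kansl2 (0.26), Kansl3 (-0.03), Phf20 (0.25), Mcrs1 (-0.10), Hcfc1 (0.09) and Wdr5 (-0.09) (each value a log2 change, here and in later lists).

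Around Kat8 on chromosome 7, 4 of the 20 nearest tested genes rose and 1 fell, where 20.5% and 11.1% of all tested genes did, a count at or below the background. Prss8 (127925716 to 127930104, on the opposite strand), a membrane-anchored serine protease whose 3′ end overlaps that of Kat8, went from 524 and 432 in WT to 931 and 1003 in KO (log2 change 1.02 ± 0.12 SE, adjusted p = 0.000119). Because strand use in counting is not given, reads from the shared bases cannot be assigned to either gene. Cox6a2, the heart and muscle form of a cytochrome oxidase subunit, went from 19.4 and 15.7 in WT to 109 and 99.5 in KO (log2 change 2.51 ± 0.26 SE, adjusted p = 6.66e-05), and was listed at 0 in both Control libraries. Stx4a, a membrane fusion protein, also rose (0.62). Direct neighbours such as Bckdk (0.11), Zfp646 (-0.03) and Prss36 (0.04) were not called.

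Genes of ciliary transport were the list with the highest share of falls. The lists were chosen with earlier results of these data known, so this rank and the counts below are not independent support. Primary cilia are built and kept by intraflagellar transport (IFT): kinesin-2 carries IFT trains to the tip, dynein-2 carries them back, and the BBSome, a protein coat, takes up membrane cargo. Of 39 tested genes of IFT, its motors and the BBSome, 19 fell (48.7%) and 2 rose (5.13%), all of them under all 4 scalings, with a median log2 change of -0.41. Without KO replicate 2, 1 rose. Over all tested genes 11.1% fell and the median was 0.08. Of the 19 falls, 4 were also called in the FPKM values and 13 with plain empirical Bayes moderation. With 1 library left out, 14 to 19 members were called lower.

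Among the train subunits 9 of 21 fell and 1 rose. Ttc26 (chromosome 6, 38381469 to 38427647), the IFT-B subunit IFT56, measured 128 and 163 normalised counts in WT and 35.0 and 45.8 in KO (log2 change -1.82 ± 0.23 SE, adjusted p = 0.000173). Both Control libraries were above the WT libraries for it, at 223.5 and 276. Wdr19 (chromosome 5, 65199696 to 65260415), the IFT-A subunit IFT144, measured 298 and 320.1 in WT and 137 and 127 in KO (log2 change -1.22 ± 0.15 SE, adjusted p = 0.000139) and was called under every alternative. Ift88, Ift57 and Ift172 of IFT-B fell by 0.88, 0.85 and 0.57 on the log2 scale, and Ift140 of IFT-A by 0.75. Ift43 also fell (-0.62, lost without WT replicate 2 or KO replicate 1, adjusted p up to 0.0913), as did Hspb11 (-0.59, lost without WT replicate 2 or KO replicate 1, adjusted p up to 0.191) and Ift22 (-0.68, lost without WT replicate 1 or 2 or KO replicate 1 or 2, adjusted p up to 0.194). The exception in the other direction was Wdr35, the IFT-A subunit IFT121, which went from 877 and 934 in WT to 1317 and 1343 in KO (0.56). Subunits of the same particles such as Ift52 (0.07), Ift81 (0.12) and Ift122 (0.11) were not called.

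Of the 7 tested motor genes 6 were called lower. Dync2h1, the dynein-2 heavy chain, measured 113 and 136.5 normalised counts in WT and 55.2 and 65.5 in KO (-1.03). Its light intermediate chain Dync2li1 measured 363 and 385 in WT and 180.3 and 217 in KO (log2 change -0.91 ± 0.14 SE, adjusted p = 0.000656), a call held under every alternative. The intermediate chain genes Wdr60 (-1.47) and Wdr34 (-0.39, lost without KO replicate 1 or 2, adjusted p up to 0.209) fell. Kif3a (-0.73) and Kif3b (-0.44, lost without KO replicate 1 or 2, adjusted p up to 0.18), the motor subunits of kinesin-2, fell too, while their partner Kifap3 was not called (-0.25). In the BBSome group 4 of 11 fell. Bbs9 measured 515.5 and 542 in WT and 296 and 260.5 in KO (log2 change -0.93 ± 0.13 SE, adjusted p = 0.000296) and Arl6, the GTPase that brings the BBSome to membranes, 149 and 178 in WT and 64.6 and 73.3 in KO (log2 change -1.23 ± 0.19 SE, adjusted p = 0.00063), and both were called under every alternative. Bbs1 fell by 1.70 from a low level, 63.9 and 69.7 in WT and 20.2 and 19.6 in KO, and Bbs4 by 0.80. Bbs7 rose (74.0 and 69.7 in WT and 116 and 141 in KO, 0.82, lost without KO replicate 2, adjusted p up to 0.184). Bbs2, Bbs5, Ttc8, Bbip1, Bbs10 and Mkks were not called.

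**Figure D2:**
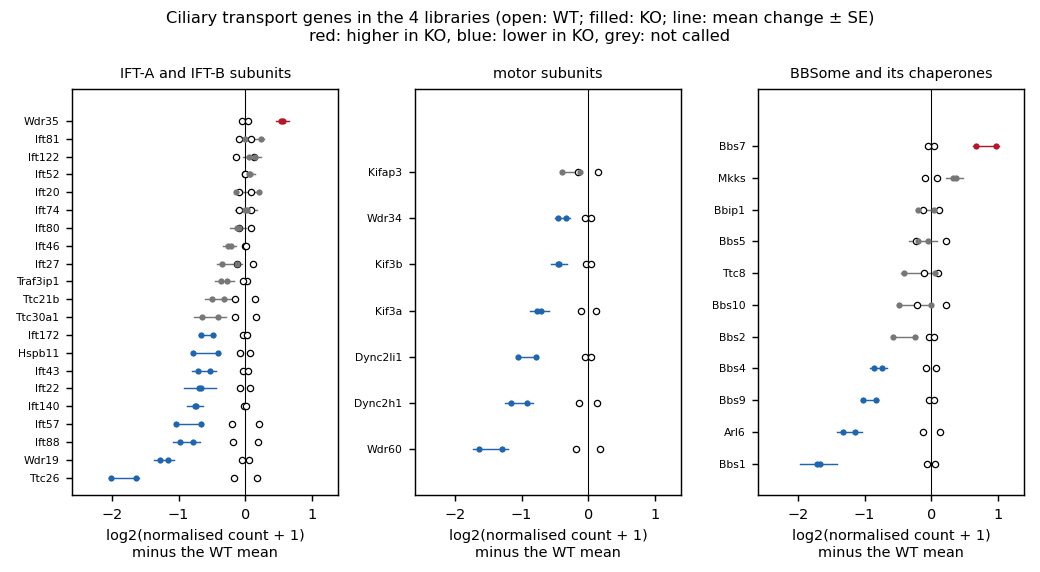
The 39 tested genes of intraflagellar transport, its motors and the BBSome, with each library's log2(normalised count + 1) minus the WT mean (open circles WT, filled circles KO, lines the mean change ± SE). Both KO libraries lie left of both WT libraries for all 19 falls, from Ttc26 (-1.82) to Wdr34 (-0.39).

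A wider list of cilium genes was drawn up after these values were seen, so it describes and supports nothing. Of its 59 tested genes 18 fell (30.5%) and 11 rose (18.6%), with 18 falls and 5 rises under all 4 scalings, and 0 falls and 1 rise in the FPKM values. Without KO replicate 2, 10 fell and 7 rose, and without KO replicate 1, 12 and 5. Transition zone genes, which gate the cilium base, were among the falls: Tctn2 (-0.96), Tmem216 (-0.94), Tctn3 (-0.93) and Rpgrip1l (-0.77). Over the alternatives the change of Rpgrip1l was as small as -0.03 (limma adjusted p up to 0.977). In the Hedgehog pathway, which signals through the cilium, 4 of 12 fell and 4 rose. The signal transducer Smo went from 305 and 264 in WT to 187 and 162 in KO (-0.70), and the cilium-tip kinesin Kif7 went from 142 and 159.8 in WT to 80.97 and 58.9 in KO (-1.12). Gli1, a transcription factor that is itself a Hedgehog target, went from 249.3 and 179 in WT to 514 and 508 in KO (log2 change 1.27 ± 0.16 SE, adjusted p = 0.000155), a call held under every alternative. Gli3 (0.78) and the co-receptor Boc (1.00) also rose, and Ptch1, another target, was not called (0.09). The change of Gli3 was as small as 0.19 over the alternatives (limma adjusted p up to 0.818). Of the RFX factors that bind ciliary promoters Rfx7 rose (0.82), and Rfx1 (0.41), Rfx2 (-0.02) and Rfx3 (-0.08) were not called.

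The promoters of the ciliary genes were searched, from 250 bases before to 50 bases after the start site, for an X-box-like motif, GTTNCC and GNAAC spaced by 3 bases, on both strands. The windows are those of RefSeq on GRCm38.p6, and 34 of the 39 tested genes matched one. The motif was in 2 of 34: 1 of 18 promoters of genes called lower and 1 of 2 of genes called higher, against 0.804% of all 32851 windows. The promoter of Ttc26 is shown because its gene fell most, with the motif in capitals, on the plus strand at chr6:38381451-38381523.
Ttc26: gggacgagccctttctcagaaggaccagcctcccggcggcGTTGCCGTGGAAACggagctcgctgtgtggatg

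The integrated stress response was the list with the highest share of rises. In this pathway, kinases that sense stress phosphorylate eIF2-alpha, general translation falls, and the factor ATF4 is made and switches on genes of amino acid supply, redox balance and feedback. Of 48 tested genes 31 rose (64.6%, against 20.5% of all genes) and 1 fell, with a median log2 change of 0.52. Under all 4 scalings 27 rose, and 17 of the 31 were also called in the FPKM values. With 1 library left out, 27 to 32 rose and 0 to 2 fell. The direction of ATF4 genes in these libraries was known when the list was drawn up, so the count is not independent support.

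Promoter sequences of 5 of the rising genes are shown because each holds TGATGNAA, a form of the C/EBP-ATF element to which ATF4 binds with C/EBP partners, read on both strands and printed in capitals. The sequence is taken from the bases before the start site in the RefSeq windows on GRCm38.p6. The motif was in 7 of 21 windows of list genes called higher (33.3%), in 11 of 38 of all tested list genes with a window (28.9%), and in 3.97% of the 32851 windows of all genes. Its form TGATGCAA, searched as TTGCATCA, was in 6 of the 21 (28.6%) against 0.895%, and the CRE palindrome TGACGTCA in 1 of 21 (4.76%) against 1.79%. The stretches printed lie at chr1:191183396-191183483 on the minus strand for Atf3, chr2:119351009-119351096 on the plus strand for Chac1, chr12:85599343-85599415 on the plus strand for Jdp2, chr19:27216780-27216867 on the plus strand for Vldlr and chr3:50443614-50443719 on the minus strand for Slc7a11, which holds it 2 times.
Atf3: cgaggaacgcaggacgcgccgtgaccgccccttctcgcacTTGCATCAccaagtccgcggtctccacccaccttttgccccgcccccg
Chac1: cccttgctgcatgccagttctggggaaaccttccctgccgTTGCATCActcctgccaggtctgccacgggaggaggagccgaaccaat
Jdp2: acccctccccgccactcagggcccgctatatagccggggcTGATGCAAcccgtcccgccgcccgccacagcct
Vldlr: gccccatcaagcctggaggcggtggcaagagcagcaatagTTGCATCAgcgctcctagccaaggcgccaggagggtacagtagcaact
Slc7a11: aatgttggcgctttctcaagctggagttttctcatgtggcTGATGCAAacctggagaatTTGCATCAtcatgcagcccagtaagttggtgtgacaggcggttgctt

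Of the 4 eIF2-alpha kinases none rose at the RNA level: Eif2ak2 (PKR), Eif2ak3 (PERK) and Eif2ak4 (GCN2) had log2 changes of -0.00, 0.01 and 0.14, and Eif2ak1 (HRI) fell (-0.44, lost without KO replicate 1, adjusted p up to 0.187). Of 8 transcription factors 6 rose. Atf4 measured 4874 and 5049 normalised counts in WT and 8322 and 8355 in KO (log2 change 0.75 ± 0.08 SE, adjusted p = 5.68e-05), with replicates that hardly differed and Control libraries at 5052 and 4960. Ddit3, the death-linked factor CHOP, measured 536 and 490 in WT and 1368 and 1173 in KO (log2 change 1.30 ± 0.11 SE, adjusted p = 2.34e-05). Atf3, whose promoter is printed above, measured 65.7 and 55.0 in WT and 226 and 200.3 in KO (log2 change 1.81 ± 0.19 SE, adjusted p = 5.79e-05), and Cebpb 17.1 and 16.2 in WT and 61.3 and 87.6 in KO (log2 change 2.07 ± 0.30 SE, adjusted p = 0.000389). Jdp2, a bZIP repressor, rose by 0.53 (lost without KO replicate 2, adjusted p up to 0.0827), and Cebpg, in a row shared with a predicted gene, by 0.82. Atf5 (-0.16) and Nupr1 (0.15) were not called. The calls on Atf4, Ddit3, Atf3 and Cebpb held under every alternative.

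All 12 tested feedback and signalling targets rose. Trib3, the pseudokinase that restrains ATF4, measured 517 and 437 normalised counts in WT and 1542 and 1560 in KO (log2 change 1.70 ± 0.11 SE, adjusted p = 4.13e-06). Chac1, an enzyme that splits glutathione, measured 112 and 56.0 in WT and 366 and 336 in KO (log2 change 2.13 ± 0.27 SE, adjusted p = 0.000389), with WT replicates well apart and still below both KO libraries. Ddit4, an inhibitor of mTORC1, measured 2095 and 1889 in WT and 4066 and 3923 in KO (1.00), and Ppp1r15a, which directs the dephosphorylation of eIF2-alpha, rose by 1.22. Vldlr, a lipoprotein receptor, measured 179 and 163 in WT and 371 and 428 in KO (1.22), and Stc2, a secreted glycoprotein, rose by 0.82. Nars (0.34, lost without KO replicate 2, adjusted p up to 0.106) and Eif4ebp1 (0.33, lost without WT replicate 2 or KO replicate 1, adjusted p up to 0.234) were the smallest rises, and their calls were lost under at least 1 other scaling. Of 9 amino acid transporters 7 rose. Slc38a2, the sodium-coupled carrier of neutral amino acids, measured 2118 and 2108 in WT and 4340 and 4397 in KO (log2 change 1.05 ± 0.08 SE, adjusted p = 1.89e-05), a 2-fold difference with replicates within a few percent. Slc7a11, the cystine importer, measured 25.9 and 34.4 in WT and 86.1 and 103 in KO (1.63), Slc6a9, a glycine transporter, 175 and 148 in WT and 326 and 345 in KO (1.06) and Slc1a4 703 and 671.5 in WT and 1296 and 1219 in KO (0.87). Slc3a2, the shared heavy chain, was not called (0.00).

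Amino acid enzymes were split. Gpt2, the mitochondrial alanine aminotransferase, measured 2669 and 2777 normalised counts in WT and 5029 and 5036 in KO (log2 change 0.89 ± 0.08 SE, adjusted p = 3.24e-05), and Aldh1l2, of mitochondrial folate metabolism, 175.5 and 193 in WT and 353 and 373 in KO (0.98). Mthfd2, in a row shared with a predicted gene, rose by 0.70 and Cth, which makes cysteine, by 0.61. Asns, the asparagine synthetase and a textbook ATF4 target, was not called at 20450 and 21197 in WT and 21455 and 22135 in KO (0.07). Phgdh (-0.05), Shmt2 (0.09), Pycr1 (-0.15) and Aldh18a1 (0.06) were not called either. Of 15 tested enzymes 6 rose and 0 fell.

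**Figure D3:**
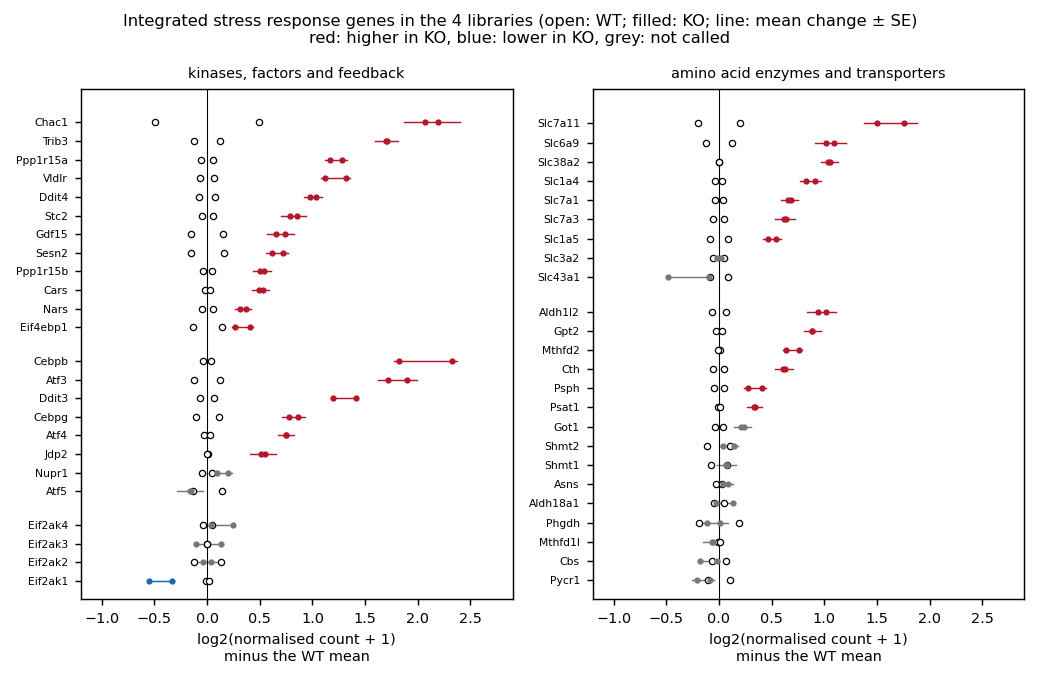
The 48 tested genes of the integrated stress response, with each library's log2(normalised count + 1) minus the WT mean (open circles WT, filled circles KO, lines the mean change ± SE). All 12 feedback targets lie to the right, from Eif4ebp1 (0.33) to Chac1 (2.13), while Eif2ak1 (-0.44) lies to the left and the other 3 kinases lie near 0.

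Genes of protein folding in the endoplasmic reticulum rose in part. The unfolded protein response runs through the sensors IRE1, PERK and ATF6 and raises chaperones through promoter elements that hold CCAAT and CCACG spaced by 9 bases. Of 40 tested genes 17 rose (42.5%) and 3 fell (7.5%), with 14 rises under all 4 scalings, 5 rises and 2 falls in the FPKM values and a median of 0.23. With 1 library left out, 14 to 17 rose, and 5 fell without WT replicate 2. Hspa5, the chaperone BiP, measured 2281 and 2550 normalised counts in WT and 4524 and 4796 in KO (log2 change 0.95 ± 0.09 SE, adjusted p = 3.25e-05), below the Control libraries in both groups (7361 and 7549). Xbp1, the factor spliced by IRE1, measured 460 and 484 in WT and 907 and 997.5 in KO (1.01), and Herpud1, of degradation at the endoplasmic reticulum, 523 and 508 in WT and 1008 and 952 in KO (0.93). In the lectin and disulfide cycle 6 of 10 rose, led by Calr (7596 and 7813 in WT and 12769 and 12898 in KO, 0.74), Ero1l (0.70) and Pdia3 (0.64). Other targets of the same response did not rise. Sdf2l1, a cofactor of BiP, went from 306 and 267 in WT to 153 and 145 in KO (log2 change -0.93 ± 0.15 SE, adjusted p = 0.00073), and Edem2, of mannose trimming, from 463 and 503 in WT to 223 and 242 in KO (log2 change -1.05 ± 0.13 SE, adjusted p = 0.000155), both called lower under every alternative. Dnajb9 (0.21), Creld2 (0.03), Dnajb11 (-0.00) and Pdia6 (0.02) were not called.

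That element, CCAAT and CCACG 9 bases apart, read on both strands, was in 4 of 12 promoter windows of folding genes called higher (33.3%), in 8 of 31 of all tested folding genes with a window (25.8%) and in 0.119% of the windows of all genes. Those 4 are shown with the element in capitals, again from RefSeq on GRCm38.p6: Hspa5 at chr2:34771985-34772083 on the plus strand, Dnajc3, an inhibitor of PERK, at chr14:118937787-118937885 on the plus strand, Calr at chr8:84847035-84847133 on the minus strand and Canx at chr11:50325760-50325858 on the minus strand.
Hspa5: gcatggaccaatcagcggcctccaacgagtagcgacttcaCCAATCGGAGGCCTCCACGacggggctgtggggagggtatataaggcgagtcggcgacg
Dnajc3: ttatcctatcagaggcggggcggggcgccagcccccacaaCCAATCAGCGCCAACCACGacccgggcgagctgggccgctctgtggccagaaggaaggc
Calr: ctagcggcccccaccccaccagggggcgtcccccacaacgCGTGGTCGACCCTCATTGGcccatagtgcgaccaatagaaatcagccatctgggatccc
Canx: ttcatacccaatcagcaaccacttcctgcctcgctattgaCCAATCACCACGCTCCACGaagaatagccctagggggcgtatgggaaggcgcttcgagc

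Dnajc3 measured 1134 and 1357 normalised counts in WT and 1717 and 1872 in KO (0.53) and Canx, the membrane-bound lectin chaperone, 11206 and 13349 in WT and 17735 and 19779 in KO (0.61). Cytosolic heat shock genes rose in 8 of 19 and fell in 0, with 5 rises under all 4 scalings, 0 in the FPKM values and 5 without KO replicate 2. Dnajb1 (0.65), Hsf2 (0.56), Hspa4 (0.56) and Hsph1 (0.49) were among them. Hspa1a and Hspa1b, strongly stress-induced in most cells, are near-identical copies whose reads may be split between them, and neither was called. Hspa1a measured 9.59 and 11.4 in WT and 12.1 and 19.6 in KO and Hspa1b 24.99 and 25.5 in WT and 29.6 and 31.4 in KO. Hsf1, their main activator, was not called (0.01).

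Genes of the NRF2 pathway, which answers oxidants and raises glutathione synthesis, were called higher more often than genes as a whole. Over all tested genes 20.5% rose and 11.1% fell, so the share of falls in this list was near that of all genes. Of 38 tested genes 17 rose (44.7%, 10 under all 4 scalings, 3 in the FPKM values) and 4 fell (10.5%). Without KO replicate 1 or 2, 10 and 9 rose and 3 and 2 fell, and without WT replicate 1 or 2, 15 and 17 rose and 2 and 6 fell. Nqo1, the quinone reductase, measured 1584 and 1547 in WT and 2560 and 2738 in KO (log2 change 0.76 ± 0.09 SE, adjusted p = 0.000119), and Srxn1, sulfiredoxin, 486 and 511.5 in WT and 848 and 944 in KO (log2 change 0.84 ± 0.11 SE, adjusted p = 0.000235), both called under every alternative. The glutathione synthesis genes Gclc (0.58), Gclm (0.56, in a row shared with a predicted gene) and Gss (0.59) rose. Glutathione transferase genes went in different directions, with Gsto1 higher (1059 and 1001 in WT and 1526 and 1486 in KO, 0.55) and Mgst3 (224 and 191 in WT and 96.9 and 91.6 in KO, -1.13) and Gstm5 (48.1 and 45.8 in WT and 17.5 and 7.85 in KO, -1.91) lower. The NRF2 targets Txnrd1 (0.02), Prdx1 (0.06), G6pdx (-0.12) and Me1 (-0.05) were not called. The core of the NRF2 element, TGACNNNGC on either strand, was in 4 of 13 promoter windows of list genes called higher (30.8%), in 12 of 30 of all tested list genes with a window (40%) and in 12.4% of all windows.

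Of 36 tested genes of the p53 pathway 21 rose (58.3%, 14 under all 4 scalings, 5 in the FPKM values) and 3 fell (8.33%). With 1 library left out, 15 to 23 rose and 2 to 4 fell. The p53 protein arrests the cell cycle or triggers death after damage, and Mdm2 is the ligase that degrades it. Mdm2 measured 3337 and 3504 normalised counts in WT and 5655 and 5860 in KO (log2 change 0.75 ± 0.08 SE, adjusted p = 7.4e-05), and Trp53 itself 3156 and 2656 in WT and 4378 and 4177 in KO (0.56). Perp, a desmosomal protein and p53 target, measured 49.98 and 64.8 in WT and 312 and 299.8 in KO (log2 change 2.41 ± 0.18 SE, adjusted p = 1.48e-05), with both Control libraries between the groups at 222 and 238. Fas, the death receptor, measured 9.26 and 7.85 in WT and 36.3 and 55.0 in KO (2.26), and Plk2, a stress kinase, 1013 and 1093 in WT and 1773 and 1856 in KO (0.79). The arrest gene Cdkn1a, which encodes p21, was not called at 5662 and 4817 in WT and 4726 and 4349 in KO (-0.20). The 3 growth arrest genes of the GADD45 family parted: Gadd45a rose (254 and 258 in WT and 511 and 599 in KO, 1.11), Gadd45b fell (-0.63) and so did Gadd45g (307 and 236 in WT and 90.1 and 99.5 in KO, log2 change -1.50 ± 0.17 SE, adjusted p = 0.000119). The death targets Bbc3 and Pmaip1, which encode PUMA and NOXA, were not called (-0.15 and 0.15). Of 13 tested BCL2 family genes limma called 0, with 4 at an unadjusted p under 0.05. Some were called with a WT replicate left out. Calls made only with plain moderation or in the FPKM values were not counted. The survival genes Mcl1 (0.07) and Bcl2l1 (0.29) and the effector Bak1 (-0.06) were among those not called.

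Fuel oxidation genes fell more often than they rose. Fatty acids enter mitochondria through carnitine palmitoyltransferases and are cut into acetyl-CoA, the donor that MOF and other acetyltransferases use and the fuel of the TCA cycle. Of 52 tested genes of fatty acid oxidation 15 fell (28.8%, against 11.1% of all genes) and 3 rose (5.77%), with a median of -0.08. All 15 falls were called under all 4 scalings, 4 with plain moderation, 1 in the FPKM values and 12 and 7 without KO replicate 1 or 2. The 1 called in the FPKM values was Hsd17b4. In the carnitine group Acsl1, an acyl-CoA synthetase, fell (-0.47, lost without KO replicate 2, adjusted p up to 0.0765), as did the carnitine palmitoyltransferase genes Cpt2 (-0.46, lost without WT replicate 1 or KO replicate 1, adjusted p up to 0.461) and Cpt1a (-0.30, lost without KO replicate 1 or 2, adjusted p up to 0.186). In the mitochondrial spiral 9 of 19 fell. Acadvl, the very-long-chain dehydrogenase, measured 252 and 203 normalised counts in WT and 109.6 and 92.1 in KO (log2 change -1.16 ± 0.18 SE, adjusted p = 0.000554), and Decr1, needed for unsaturated chains, 209 and 209 in WT and 118 and 133.5 in KO (log2 change -0.73 ± 0.16 SE, adjusted p = 0.00454). Hadha fell (-0.43, lost without KO replicate 2, adjusted p up to 0.0835), but its partner subunit Hadhb was not called at 107 and 113 in WT and 88.8 and 114 in KO (-0.13). The medium-chain dehydrogenase Acadm was not called (0.25). Of 12 peroxisomal enzymes 3 fell: Ehhadh (189.7 and 191 in WT and 92.8 and 99.5 in KO, -0.98), Hsd17b4 (968 and 1021 in WT and 557 and 614 in KO, log2 change -0.77 ± 0.11 SE, adjusted p = 0.000332) and Pecr (-0.46, lost without KO replicate 1, adjusted p up to 0.185). None of the 3 rises of the list was called under all 4 scalings, and 0 members rose without KO replicate 2.

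Of 24 genes of acetyl-CoA supply and pyruvate entry 8 fell (33.3%) and 1 rose, with 5 falls and 0 rises without KO replicate 2. Acat1, which makes and splits acetoacetyl-CoA in mitochondria, measured 620.1 and 601 in WT and 282.5 and 279 in KO (log2 change -1.12 ± 0.12 SE, adjusted p = 6.75e-05). The acetyl-CoA synthetases Acss2 (577 and 591 in WT and 342 and 374 in KO, -0.70) and Acss1 (-0.34, lost without KO replicate 1 or 2, adjusted p up to 0.152) fell, while Acly, the main cytosolic source, was not called at 8873 and 8622 in WT and 9376 and 9184 in KO (0.09). Of the kinases that switch off pyruvate dehydrogenase, Pdk2 went from 145 and 111 in WT to 13.4 and 40.6 in KO (-2.38), with KO replicates well apart, and Pdk4 from 1104 and 1131 in WT to 665 and 661 in KO (log2 change -0.75 ± 0.10 SE, adjusted p = 0.000248). Pdk1 (-0.11) and Pdk3 (0.11) were not called. Pdhb, a subunit of the dehydrogenase itself, rose by 0.44 (lost without KO replicate 2, adjusted p up to 0.0828). In the TCA cycle 7 of 24 fell (29.2%) and 3 rose (1 under all 4 scalings), with 2 and 1 falls without KO replicate 1 or 2 and 1 rise without KO replicate 2. Pcx, pyruvate carboxylase, measured 491 and 378 in WT and 223 and 188.5 in KO (log2 change -1.07 ± 0.16 SE, adjusted p = 0.000436), while Cs, citrate synthase, rose (6312 and 5876 in WT and 8901 and 8400 in KO, 0.51). None of these acetyl-CoA or TCA calls was made in the FPKM values.

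Of 24 glycolysis genes 6 fell (25%) and 4 rose (16.7%, 1 under all 4 scalings), with 4 and 5 falls and 1 and 2 rises without KO replicate 1 or 2. The phosphofructokinase genes Pfkl (-0.66) and Pfkm (-0.58) fell, and Slc16a3, a lactate exporter, measured 266.5 and 224 in WT and 132 and 113 in KO (-0.998). Gapdh rose by 0.92 at only 214 and 161 normalised counts in WT and 346 and 360.1 in KO. Its many pseudogenes share its reads, so this value is uncertain. Slc2a3, Hk2, Ldha and Gpi1 were not called. Among 74 nuclear genes of the respiratory chain 8 fell (10.8%) and 10 rose (13.5%, 4 under all 4 scalings), both below the shares of all genes in each direction. All 8 falls were among the 36 genes of complex I, which had 1 rise, and 5 and 2 falls were left without KO replicate 1 or 2. Ndufv1, a catalytic subunit, went from 1790 and 1585 in WT to 1238 and 1086 in KO (-0.54), Ndufa1 from 292.5 and 292 in WT to 219 and 189.8 in KO (-0.52, lost without KO replicate 2, adjusted p up to 0.151) and Ndufa9 from 1289 and 1353 in WT to 962 and 945 in KO (-0.47). Complexes III and IV and ATP synthase had 9 rises and 0 falls in 38 tested genes, among them Atp5l (40.7 and 56.9 in WT and 132 and 132 in KO, 1.44). In that order 10%, 23.1% and 33.3% of their genes rose, against 20.5% of all tested genes. Under all 4 scalings 0, 3 and 1 genes rose. In the whole list 7 and 2 rose without KO replicate 1 or 2. Of the 27 tested genes that copy and process mitochondrial RNA or DNA 3 rose (0 under all 4 scalings) and 3 fell, with 7 rises without WT replicate 2 and 0 without KO replicate 2. Of 71 mitochondrial ribosomal protein genes 8 rose (3 under all 4 scalings, 4 without either KO replicate) and 5 fell, with 9 falls without WT replicate 2 and 2 without KO replicate 2.

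Aminoacyl-tRNA synthetases load amino acids onto tRNAs, with separate sets for the cytosol and the mitochondria. Of 19 cytosolic ones 8 rose and 2 fell, and of 17 mitochondrial ones 1 rose and 6 fell; the difference itself was not tested. Both compartments together had 9 rises (6 under all 4 scalings) and 8 falls, 5 and 5 without KO replicate 2, and 4 falls without KO replicate 1. Eprs (0.50), Lars (0.48) and Sars (0.44) were cytosolic rises, and Fars2 (-0.56, lost without KO replicate 2, adjusted p up to 0.0964) and Tars2 (-0.48) mitochondrial falls. Nars2 was the mitochondrial exception (169 and 175 in WT and 266 and 281 in KO, 0.67).

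**Figure D4:**
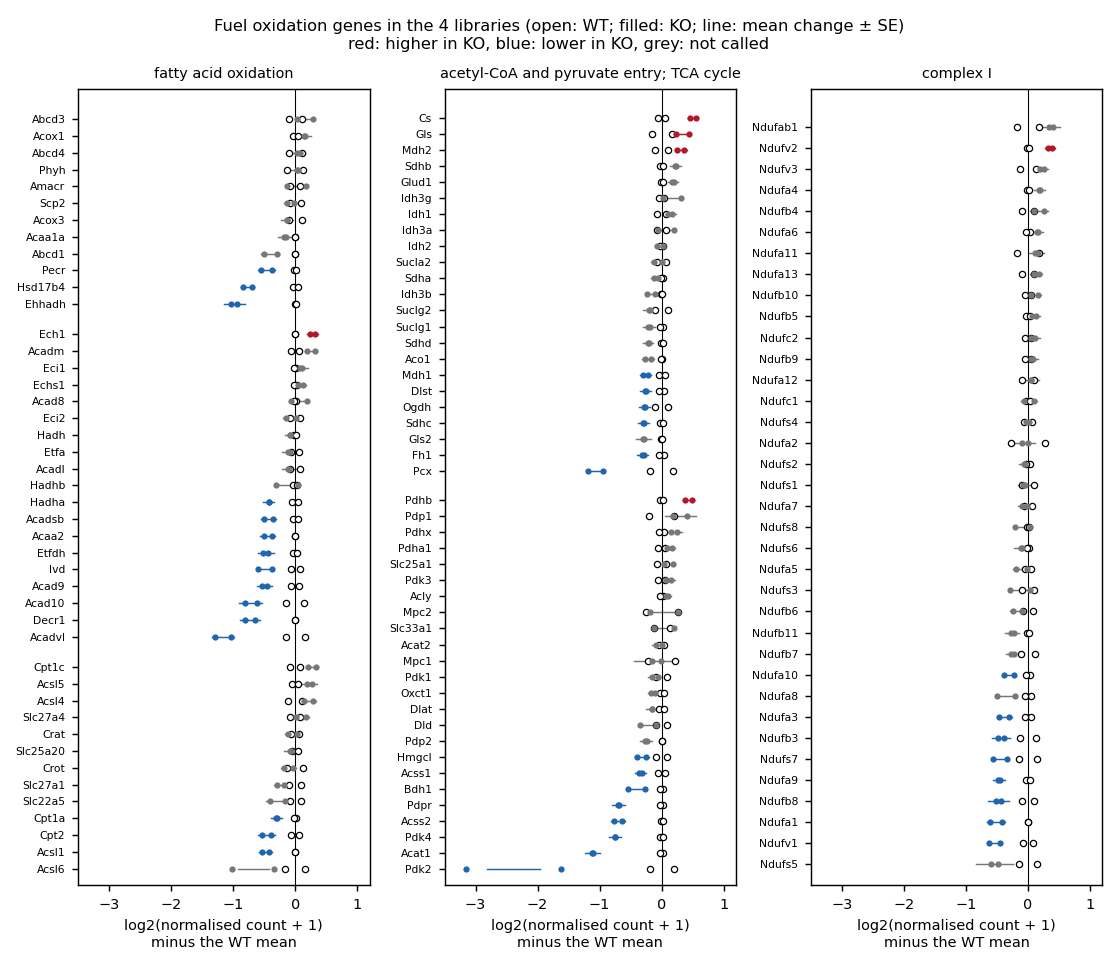
Genes of fatty acid oxidation (peroxisomal enzymes, mitochondrial spiral and carnitine group from top to bottom), of the TCA cycle above acetyl-CoA and pyruvate entry, and of complex I, with each library's log2(normalised count + 1) minus the WT mean (open circles WT, filled circles KO, lines the mean change ± SE). The falls run from Pdk2 (-2.38) to Acss1 (-0.34) and smaller ones, and most genes of each panel lie near 0.

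Histone acetylation is set by acetyltransferases and deacetylases and read by bromodomains. Of 35 other acetyltransferase genes 15 rose (42.9%) and 1 fell (0 without WT replicate 2 or either KO replicate), but 6 rose under all 4 scalings, 9 and 6 without KO replicate 1 or 2, and 1, Ep300 (0.34, lost without KO replicate 1 or 2, adjusted p up to 0.168), in the FPKM values, a call lost under TMM and total signal. Kat2b, or PCAF, measured 893 and 1103 in WT and 1413 and 1644 in KO (0.62), and the MYST gene Kat7, or HBO1, rose by 0.29 (lost without KO replicate 1 or 2, adjusted p up to 0.475), a call lost under other scalings. Of 32 deacetylase genes 8 rose (4 under all 4 scalings) and 5 fell, with 3 and 5 rises without KO replicate 1 or 2. These deacetylase shares, 25% and 15.6%, stand beside 20.5% and 11.1% of all tested genes. Hdac11 measured 377 and 296 normalised counts in WT and 82.8 and 67.8 in KO (log2 change -2.14 ± 0.18 SE, adjusted p = 2.32e-05) against 117.5 and 95.3 in Control. Sirt2, a mainly cytosolic deacetylase that also acts on H4 lysine 16, measured 507 and 455 in WT and 227 and 195 in KO (log2 change -1.19 ± 0.14 SE, adjusted p = 0.000113). Hdac10 (-1.38), Hdac8 (-1.27) and Hdac7 (-1.01) fell too, while Hdac2 rose by 0.45 and Hdac1 was not called (0.19). Of 19 bromodomain genes 8 rose and 0 fell (3 under all 4 scalings, 0 in the FPKM values, 4 and 3 without KO replicate 1 or 2), led by Brd2 (3179 and 3027 in WT and 4784 and 4576 in KO, 0.59).

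Polycomb complexes silence genes through H3 lysine 27 methylation and H2A ubiquitination, and COMPASS complexes methylate H3 lysine 4. Of 34 tested genes of both 18 rose (52.9%, 9 under all 4 scalings, 1 in the FPKM values, 12 and 8 without KO replicate 1 or 2) and 1 fell (0 to 2 with 1 library left out). Bmi1, a ring-finger subunit of PRC1, measured 223 and 259 in WT and 478 and 541 in KO (log2 change 1.08 ± 0.14 SE, adjusted p = 0.000172), and Mtf2, which brings PRC2 to CpG islands, 4139 and 4833 in WT and 7229 and 8220 in KO (log2 change 0.79 ± 0.10 SE, adjusted p = 0.000148). Kdm6b, a demethylase of H3 lysine 27, measured 1115 and 902.5 in WT and 2131 and 1961 in KO (log2 change 1.03 ± 0.11 SE, adjusted p = 7.4e-05), a call held under every alternative. Among 17 DNA methylation genes there were 4 rises (23.5%, fewer without KO replicate 2) and 2 falls (11.8%, fewer without either KO replicate). These shares were near the 20.5% and 11.1% of all tested genes. The rises included the 5-methylcytosine oxidase genes Tet1 (0.56) and Tet2 (0.55).

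Calls among pluripotency genes went in both directions, where 20.5% of all tested genes rose and 11.1% fell. The share of rises was near that of all genes. Of 40 tested genes 9 rose (22.5%, 3 under all 4 scalings) and 7 fell (17.5%), with 5 and 4 without KO replicate 1 and 3 and 3 without KO replicate 2, and the median changed sign between scalings. Pou5f1, or Oct4, measured 8386 and 7634 normalised counts in WT and 7490 and 7288 in KO and Sox2 4065 and 4072 in WT and 4007 and 4265 in KO, and neither was called (-0.12 and 0.02). Esrrb, an orphan nuclear receptor of the naive state, measured 17996 and 16807 in WT and 13446 and 12709 in KO (log2 change -0.41 ± 0.07 SE, adjusted p = 0.00145), while Nanog (0.35, lost without KO replicate 2, adjusted p up to 0.119) and Zfp42 (0.41, lost without KO replicate 2, adjusted p up to 0.0842) rose. The Nanog call was lost under the scaling to total signal. Klf2, Klf4, Prdm14, Tfcp2l1 and Fgf4 were not called. Cdh2, N-cadherin, measured 12.96 and 9.82 in WT and 57.9 and 64.1 in KO (log2 change 2.33 ± 0.33 SE, adjusted p = 0.000334), still under the Control libraries (89.2 and 75.8).

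Of 34 genes of the Nodal and TGF-beta pathway 17 rose in limma's test (50%, 8 under all 4 scalings, 1 of them also in the FPKM values). Fewer rose with either KO replicate left out. In the main fit 0 fell, but a fall was called without WT replicate 2 and without KO replicate 1. Nodal, the ligand, measured 429 and 326 in WT and 739 and 694 in KO (log2 change 0.93 ± 0.14 SE, adjusted p = 0.000452), and its feedback inhibitor Lefty1 12.96 and 8.84 in WT and 49.8 and 65.5 in KO (2.31), with 269.7 and 255 in Control. Bmpr1a, a BMP receptor, rose by 0.77, Smad5, in a row shared with a predicted gene, by 0.69, and Id2, a target of BMP signals, measured 47.2 and 41.2 in WT and 189.7 and 219.9 in KO (log2 change 2.19 ± 0.20 SE, adjusted p = 2.86e-05). Of 23 genes of ERK feedback and early response 8 rose (4 under all 4 scalings) and 0 fell, with 5 rises without KO replicate 1, Jun at 96.8 and 102 in WT and 257 and 259.8 in KO (log2 change 1.37 ± 0.16 SE, adjusted p = 0.000102) and Ier2 at 389.6 and 311 in WT and 709 and 679 in KO (0.99). The ERK readouts Dusp6 (-0.13) and Etv5 (0.01) were not called.

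Adhesion genes rose in 12 of 38 cases (8 under all 4 scalings) and fell in 3, with 1 fall without WT replicate 1 or KO replicate 1. Cdh1, E-cadherin, measured 12510 and 12482 in WT and 19276 and 19038 in KO (log2 change 0.62 ± 0.07 SE, adjusted p = 9.59e-05), and Cdh3 rose by 0.86. The keratin genes Krt42 (1.21) and Krt19 (2.48, in a row shared with a predicted gene) rose. Among integrin and matrix genes 11 of 38 rose (7 under all 4 scalings) and 7 fell, with 7 rises without KO replicate 1, and 3 and 1 falls without WT replicate 1 and KO replicate 2. Serpine2, a secreted protease inhibitor, measured 131 and 129.6 in WT and 662 and 704 in KO (log2 change 2.38 ± 0.13 SE, adjusted p = 1.48e-06), Plaur, the urokinase receptor, 120.3 and 87.4 in WT and 291 and 229 in KO (1.32) and Col4a1, basement membrane collagen, 21.3 and 32.4 in WT and 74.0 and 83.8 in KO (1.55). Itgal, the alpha chain of the leukocyte integrin LFA-1, measured 155.5 and 163 in WT and 18.8 and 13.1 in KO (log2 change -3.26 ± 0.26 SE, adjusted p = 1.89e-05).

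Antigen presentation genes fell in 5 of 11 tested cases (45.5%, against 11.1% of all tested genes) and 1 rose. Fewer fell with any 1 library left out, and 1 of the falls was also called in the FPKM values. A further 8 list genes were below the filter. H2-Oa and Tap2 reached the filter's level of 10 in WT alone, so the share of falls depends in part on the filter. The row of H2-DMb1 and H2-DMb2, near-identical copies whose reads cannot be told apart, measured 129.6 and 123.7 in WT and 9.42 and 19.6 in KO (-3.12). H2-Oa went from 32.4 and 23.6 in WT to 6.73 and 7.85 in KO (-1.79, lost without WT replicate 1, adjusted p up to 0.0798), and H2-DMa (-1.24, lost without WT replicate 1 or KO replicate 2, adjusted p up to 0.3) and the class II activator Ciita (-0.88, lost without WT replicate 2 or KO replicate 2, adjusted p up to 0.181) fell too. Both KO libraries were shallower than the WT libraries, and at such levels few reads stand behind each value. Tap1, a subunit of the peptide transporter of class I, rose (172.5 and 149 in WT and 317.5 and 311 in KO, 0.97). Its other subunit, Tap2, was called lower (lost without WT replicate 1 or 2 or KO replicate 1, adjusted p up to 0.221). Tap2 measured 14.8 and 13.7 in WT and 2.45 and 5.24 in KO, near the limit of 0 counts, so no fold is given. Among cytoskeletal genes 7 of 32 rose (21.9%) and 7 fell (21.9%), against 20.5% and 11.1% of all tested genes. Prph, peripherin, measured 15.7 and 15.7 in WT and 96.9 and 102 in KO (log2 change 2.59 ± 0.27 SE, adjusted p = 5.68e-05) and Vim, vimentin, 1738 and 1693 in WT and 2828 and 2983 in KO (log2 change 0.76 ± 0.09 SE, adjusted p = 0.000109). The muscle-type genes Tnni1 (185 and 158 in WT and 21.5 and 41.9 in KO, -2.47) and Des (256 and 282 in WT and 91.5 and 124 in KO, -1.32) fell. Tnnt2 was also called lower, a call that depended on WT replicate 2. It measured 12.96 and 20.62 in WT and 1.345 and 3.927 in KO, at or near the limit of 0 counts, so no fold is given. Muscle markers summed to 456.3 and 468.3 normalised counts in WT and 119.7 and 178.0 in KO, and all 3 tested of the 8 with a row fell. Tnnt2 passed the filter through WT alone, so that count rests on Des and Tnni1. Myh7 and Actc1 were at 0 in all 4 libraries and Myod1 at 0 to 1.96. Fibroblast markers summed to 1838 and 1774 in WT and 2899 and 3051 in KO, nearly all of it Vim, which embryonic stem cells also express. A smaller number of cells with such transcripts and less RNA per cell cannot be told apart in bulk libraries, here or for any gene.

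Imprinted genes rose in 9 of 27 cases (33.3%, 7 under all 4 scalings, 3 in the FPKM values) and fell in 1 (2 without WT replicate 2 or KO replicate 1). Meg3 (4196 and 4528 in WT and 6843 and 7428 in KO, log2 change 0.71 ± 0.08 SE, adjusted p = 0.000121) and Rian (342 and 396 in WT and 843 and 1032 in KO, log2 change 1.341 ± 0.13 SE, adjusted p = 3.69e-05), noncoding RNAs of 1 maternally expressed cluster on chromosome 12, rose together with the row of Mirg (0.82). Peg3, a paternally expressed zinc finger gene, measured 4215 and 4567 in WT and 7604 and 7820 in KO (log2 change 0.81 ± 0.08 SE, adjusted p = 4.59e-05), and its overlapping neighbour Usp29 rose by 0.88. Slc38a4 was the fall (-0.60).

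Of 41 ribosome biogenesis genes 19 rose (12 under all 4 scalings, 10 without KO replicate 2) and 3 fell (0 without either KO replicate). Among the rises were Ppan (0.74), Nop56 (0.58, in a row with small RNA genes) and Utp4 (2349 and 2367 in WT and 3443 and 3470 in KO, 0.55). The RNA of nucleolin, Ncl, rose by 0.57 in a row with small RNA genes. Of 34 proteasome genes 12 rose, but 1 under all 4 scalings and 5 and 2 without KO replicate 1 or 2. Lysosome and autophagy genes rose in 21 of 76 cases (10 under all 4 scalings, 11 and 10 without KO replicate 1 or 2) and fell in 9 (5 and 4). The shares were 27.6% and 11.8%, and 24.3% and 10.8% for the cholesterol and fatty acid synthesis genes below. All tested genes rose in 20.5% and fell in 11.1% of cases. Gpnmb, a lysosomal glycoprotein, measured 85.1 and 78.5 in WT and 489.7 and 453 in KO (log2 change 2.51 ± 0.15 SE, adjusted p = 2.12e-06), Sqstm1, the autophagy receptor p62, 3937 and 3519 in WT and 7349 and 6956 in KO (log2 change 0.94 ± 0.09 SE, adjusted p = 2.95e-05) and Atg9b 324 and 302.5 in WT and 717 and 618 in KO (1.08). Cholesterol and fatty acid synthesis genes rose in 9 of 37 cases (4 under all 4 scalings, 3 and 5 without KO replicate 1 or 2), with Fasn at 2964 and 2616 in WT and 4998 and 4363 in KO (0.74), and fell in 4, with Lss at 1550 and 1529 in WT and 1088 and 1064 in KO (-0.52).

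Of 51 replication genes 8 rose (4 under all 4 scalings, 5 and 3 without KO replicate 1 or 2) and 6 fell (4 without KO replicate 1, 9 without WT replicate 1). The replication shares, 15.7% and 11.8%, lay below and near the 20.5% and 11.1% of all tested genes. Pold4, the smallest subunit of DNA polymerase delta, measured 170.3 and 142 in WT and 29.6 and 30.1 in KO (log2 change -2.35 ± 0.22 SE, adjusted p = 3.25e-05), and Orc1, of the origin recognition complex, 539.7 and 628.5 in WT and 919.5 and 994 in KO (0.71). The translesion polymerase gene Rev3l (0.69) rose and the end-joining polymerase genes Poll (-0.69) and Polm (-0.88) fell. Of 42 double-strand break repair genes 5 rose (2 under all 4 scalings) and 5 fell, ranging from 3 to 10 rises and from 1 to 8 falls with 1 library left out. In this repair list 11.9% rose and 11.9% fell, below and near the 20.5% and 11.1% of all tested genes. The checkpoint kinase gene Chek2 (0.69) and the break sensor gene Nbn (0.66) were higher and the recombinase paralog Rad51b (-0.93) lower. In the cell cycle list 12 of 34 rose (6 under all 4 scalings, 7 without either KO replicate) and 5 fell (2 and 3). Ccne2, a G1/S cyclin, went from 141 and 147 in WT to 289.7 and 292 in KO (1.01) and the cyclin gene Ccnd1 rose by 0.54.

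The largest named rises beside those above were Avil, Ms4a10, Cpne2 and Scn3b. Avil, an actin-binding protein of the villin family, was listed at 0 and 3.22 in WT and 50.1 and 53.5 in KO, and as its WT level was at or near the limit of 0 counts no fold is given. Ms4a10, a membrane protein, measured 12.96 and 7.85 in WT and 91.5 and 91.6 in KO (log2 change 3.06 ± 0.32 SE, adjusted p = 6.64e-05), and Cpne2, a copine, 34.2 and 21.6 in WT and 189.7 and 133.5 in KO (log2 change 2.505 ± 0.27 SE, adjusted p = 7.21e-05). Scn3b, a sodium channel subunit, measured 45.4 and 43.2 in WT and 200.5 and 222.5 in KO (2.23). The largest falls beside those above were Cacng7 (53.7 and 53.01 in WT and 12.1 and 2.62 in KO), Arpin (83.3 and 104 in WT and 28.2 and 11.8 in KO), an inhibitor of the Arp2/3 complex, Acy3 (-2.25), Sema4f (-2.18), Il17rc (-2.18), Unc93b1 (139 and 119 in WT and 29.6 and 27.5 in KO), which brings Toll-like receptors to endosomes, and Mpp2 (-2.07). Cacng7 and Arpin had KO replicates far apart, and their calls were lost with plain moderation.

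**Figure D5:**
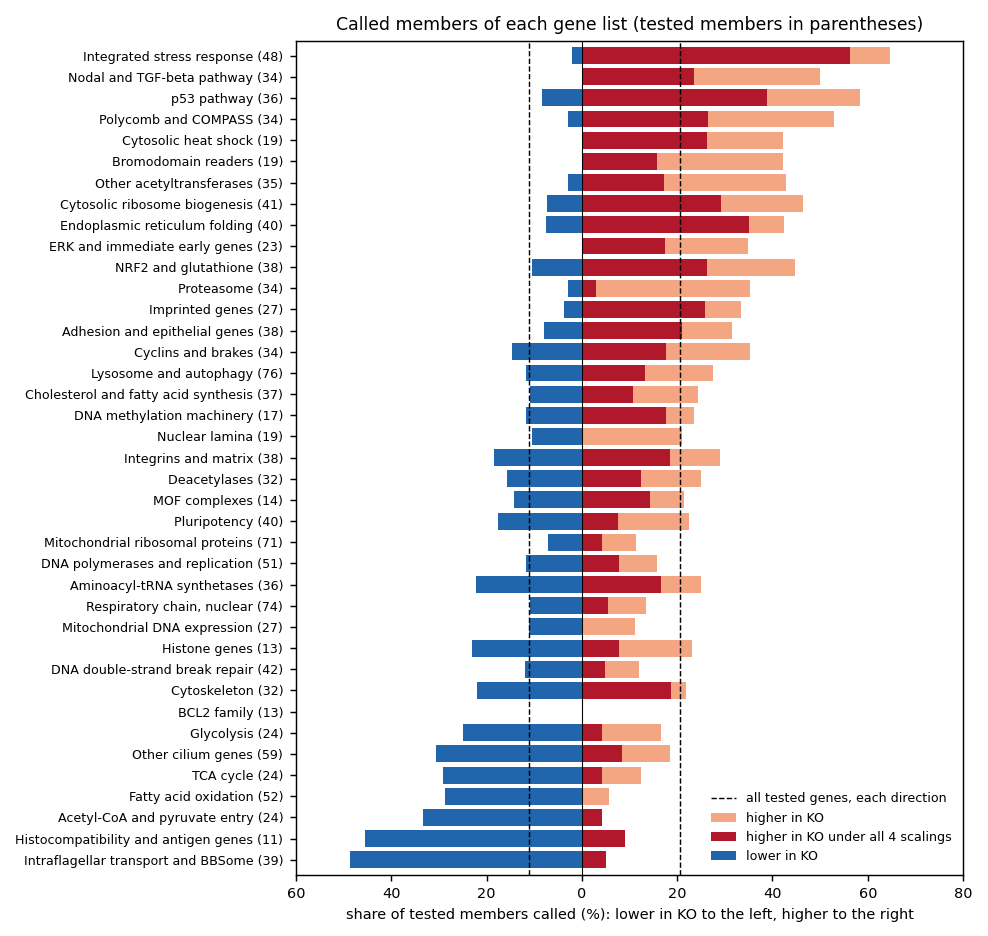
Share of tested members called lower (left) and higher (right, dark red under all 4 scalings) in KO for each gene list, with the number of tested members in parentheses and dashed lines at the shares of all tested genes, 11.1% lower and 20.5% higher. Ciliary transport stands at the bottom with 48.7% lower, and the integrated stress response at the top with 64.6% higher. The lists were drawn up with results of these data known, so their order is not independent support.

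By position, 528 tested genes of the X chromosome rose in 21.2% and fell in 8.71% of cases, with a median log2 change of 0.11. The 12783 autosomal genes rose in 20.3% and fell in 11.4%, with a median of 0.08. Among autosomes chromosome 8 had the highest share of falls, 16.3% of 698, and chromosome 12 the lowest with 8.08% of 433. Markers of other cell types differed by type. The 11 trophectoderm markers summed to 2851 and 2807 in WT and 3305 and 3358 in KO, with Cdx2 and Hand1 at 0 in all 4. Of 7 tested, 2 rose and 0 fell. The 12 primitive endoderm markers summed to 1878 and 1830 in WT and 1561 and 1487 in KO. Most of that sum was Lama1, which fell (1635 and 1566 in WT and 1254 and 1152 in KO). Of the 7 tested primitive endoderm markers 2 rose and 2 fell. Germ cell markers summed to 1795 and 1938 in WT and 2573 and 2765 in KO, where 4 of 8 tested rose, Dazl (122 and 176 in WT and 259.7 and 364 in KO) and Prdm1 (0.75) among them, and Ddx4 and Sycp3 were not called. Their part in the results above was not tested.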

How the data were processed

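RNA was sequenced from 2 WT and 2 KO libraries; per the labels' protocols it was extracted with RNeasy columns and DNase and read single-end from TruSeq libraries. The submitters' processing notes name mm10, TopHat2 2.1.1, SAMtools 1.5 and deepTools, without their roles. The program behind the gene tables, and whether counting used strand, are not given in the sources used here. The authors deposited a table of normalised counts, a signal of reads divided by 1 factor per library, and a table of FPKM values for the same 50273 rows. In the deposited counts 84.4% to 85.4% of a library's values were whole reads within a tolerance of 0.1, too few for a count test, so limma took the place of the count model planned for whole reads. Rows of 1 name were summed. Of all rows 1314 name several genes, with 12.88% to 13.49% of the compared libraries' signal.

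Limma 3.58.1 in R 4.3.3 (trend and robust empirical Bayes) was fitted to log2(normalised count + 1) over the 4 libraries, for genes with at least 10 in at least 2. Fold changes on this scale understate changes of low genes. P-values were adjusted over all 14751 genes by Benjamini and Hochberg, with 0.05 as the threshold. On simulated data with 200 changed genes (14751 genes, 20 draws) the fit recovered 11%, 33.1%, 67.4% and 79.9% of changes of 1.5-, 2-, 4- and 8-fold, with a median of 1 false call. That simulation changed 200 genes, whereas 4659 were called in the data. Its recovery and false calls therefore do not carry over to this comparison. The alternatives were 3 other scalings (median of ratios, TMM, total signal), pseudocounts of 0.5 and 5, filters, FPKM with a pseudocount of 0.1, all 10 libraries, plain empirical Bayes, merged rows left out, a replicate block and each library left out.

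The members and the 38 gene lists were chosen with earlier results of these data known. A list gene was used with its own row or one shared with predicted or small RNA genes. Of 1437 list genes, 80 were below the filter, 56 shared a row with another named gene and 11 had no row under these names, so they were not analysed here. Genes named by rule were the MOF complexes, the 12 largest rises and falls under all 4 scalings with a mean of at least 50 in the higher group, up to 5 members per list by smallest adjusted p, and 10 neighbours on each side of Kat8. Other genes were named after their values were seen, to show members that differ from their group. Some genes are not reported here. Positions came from GENCODE M21 and promoter windows from RefSeq, both on GRCm38. Figures were drawn with matplotlib 3.10.9.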

Additional observations from a re-analysis of the deposited data

How the results depend on the processing

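The number of genes called moved from 4659 to 456 with the FPKM values, 1535 with plain empirical Bayes and 7255 with the replicate block, and lay between 2733 and 5004 with 1 library left out. Of the 4659, 427 were also called in the FPKM values, 1402 with plain empirical Bayes and 346 under every alternative. The share of calls that rose was 34.1% scaled to total signal, 44.4% by TMM, 50.2% by the median of ratios, 66.5% with a filter of 50 in 2 libraries, 67.8% in the FPKM values, 56.7% with plain empirical Bayes, and 58.5% to 67.9% with 1 library left out. Kat8 kept its direction under all 16 alternatives and missed the threshold in the FPKM values alone (-0.69, limma adjusted p = 0.0581; highest of its other alternatives 0.0412). The sign turned in the FPKM values for the row of Kansl1 (-0.02) and for Sun2 (0.39), and for no other named gene that had been called, under any alternative; the cause was not tested. The replicate numbers pair the samples by nothing in the labels: the difference between replicates 1 and 2 correlated between WT and KO at 0.164 over 14751 genes, and the block, which leaves a single residual degree of freedom, changed no named call to not called. The list medians of the nuclear lamina, synthetases, BCL2 family, glycolysis, mitochondrial DNA expression, break repair and pluripotency genes, and under TMM and total signal of the MOF complexes, turned negative under other scalings, as did those of the lysosome and autophagy, cell cycle, and integrin and matrix genes under total signal alone. Depth limits the low genes: a level under about 4.04 normalised counts in KO cannot be told from 0.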

Other observations

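Histone genes were tested in 13 rows, of which 3 rose (1 under all 4 scalings) and 3 fell (2 to 3 falls and 1 to 3 rises with 1 library left out). H1f0, a linker histone of slowly dividing cells, measured 878 and 778.5 normalised counts in WT and 496 and 529 in KO (log2 change -0.69 ± 0.11 SE, adjusted p = 0.000821, limma). H2afz, the variant H2A.Z, measured 299 and 323 in WT and 511 and 567 in KO (log2 change 0.79 ± 0.12 SE, adjusted p = 0.000657). The canonical genes, whose messages lack poly(A) tails, were mostly below the filter. H2afy, macroH2A, was not called (0.12). None of the 6 calls was made in the FPKM values.

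Of 19 nuclear lamina genes 4 rose (21.1%) and 2 fell (10.5%), with 0 rises under all 4 scalings. These shares were near the 20.5% and 11.1% of all tested genes. Without KO replicate 1 or 2, 0 and 1 rose and 1 and 0 fell, and 1 fell without WT replicate 1. Lmnb1, lamin B1, measured 4662 and 4709 in WT and 5489 and 5811 in KO (0.27, lost without KO replicate 1 or 2, adjusted p up to 0.341), and Lmnb2, lamin B2, measured 821 and 659.7 in WT and 561 and 527.5 in KO (-0.43, lost without WT replicate 1 or KO replicate 2, adjusted p up to 0.155). Lmna, lamin A and C, was not called (0.15). Among genes that read and process mitochondrial DNA and its RNA, the polymerase gene Polrmt measured 585 and 470.3 in WT and 370 and 304 in KO (log2 change -0.64 ± 0.14 SE, adjusted p = 0.00521) and Elac2, which trims tRNA 3′ ends, 692 and 583 in WT and 401 and 352 in KO (log2 change -0.76 ± 0.13 SE, adjusted p = 0.00106). Tfam, the packaging factor of mitochondrial DNA, was not called (0.22). RNA of the mitochondrial genome itself made up 1.85% and 2.204% of the signal in WT and 2.261% and 2.348% in KO.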
